A study of Mus musculus with 16 samples.

Results

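Whole lungs of old and young male mice taken at lights on were compared across all genes measured on an expression array. The old mice were 18 months old and the young mice 2 months old. All were C57BL/6J, an inbred laboratory strain, kept specific-pathogen-free on standard chow under a cycle of 12 h of light and 12 h of dark. Zeitgeber time 0 (ZT0) is lights on. The comparison used 8 of the 16 arrays of the study, 4 Old ZT0 and 4 Young ZT0, and the other 8 were from the same ages at ZT12, lights off. Every lung was perfused with cold saline through the right ventricle of the heart before it was frozen, and RNA came from a frozen piece of whole lung. The old mice were also the heavier ones, per the labels' protocols, so age and body weight cannot be told apart. The members were all genes whose probe set carried a single gene symbol, 22180 genes, of which 15526 had a mean level high enough to be tested.

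The lung exchanges gas across thin alveolar epithelium and a dense capillary bed held by collagen and elastin, and ciliated airway cells move mucus out of it. Ageing of this organ is known for changes in matrix, for accumulation of lymphocytes and plasma cells, and for altered innate immunity. Most lung cells also carry a circadian clock, in which BMAL1 and CLOCK drive repressors such as PER, CRY and the REV-ERB receptors, so lights on is a defined phase of that cycle.

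The arrays were alike in distribution, with medians between 6.249 and 6.302 on the log2 scale and correlations within a group between 0.978 and 0.993. Lung markers were bright in all 8 ZT0 arrays. Sftpc, surfactant protein C of alveolar type 2 cells, lay between 13.19 and 13.31, Scgb1a1 of airway club cells between 13.35 and 13.47, and Ager of alveolar type 1 cells between 12.37 and 12.52. Whether the 4 arrays of a group came from 4 animals is not given in their titles, and p-values therefore measure the spread between arrays, which may be technical. Their number limits the precision of every value. In bulk tissue, fewer cells of a type and less RNA per cell cannot be told apart. An array outside the comparison stood apart. Over the 220 genes called higher in old lungs at ZT0, the array labelled Young ZT12 replicate 4 had a median of 0.35 above the Young ZT0 mean, against 0.14 to 0.17 in the other Young ZT12 arrays and 0.33 to 0.57 in the Old ZT12 arrays. It had no part in the ZT0 group means. It entered the estimate of the spread, the choice of tested genes, the list levels, the fits with marker levels and the ZT12 differences. Without it 526 genes were called for old minus young at ZT0, where 326 were called with it.

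Heart muscle and fat markers differed between the groups, and they are given first because they move with the comparison. Every difference is old minus young on the log2 scale, and its standard error (SE) comes from the model, with n = 4 arrays per group. A gene is called at an adjusted p under 0.05 by limma. The level of a list in an array is the median, over its tested genes, of the distance from each gene's mean over 16 arrays. For 29 tested cardiac genes it was -0.79, -0.63, 0.07 and -0.04 in Young ZT0 replicates 1 to 4, and 0.04, 1.04, 0.54 and 1.13 in Old ZT0 replicates 1 to 4. Old replicate 1 lay inside the young range and the other 3 old arrays above it. By sign 27 of the 29 were higher in old lungs, where 7062 of all 15526 genes were higher and 8464 lower, with a median difference of 0.96 and a range of -0.06 to 2.94, and 0 were called, where 2.10% of all genes tested were. Without Old ZT0 replicate 1, 6 cardiac genes were called. In 7 of the 29 the groups did not overlap, all higher in old. For comparison, 10.8% of all genes did not overlap, 5.64% higher in old and 5.18% lower. At ZT12 the median cardiac difference was -0.05. Nppa, the atrial natriuretic peptide, had the largest difference, 2.94, and was not called.

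The fat cell list, with 15 tested genes, stood at -0.22, -0.38, -0.21 and -0.3 in the young arrays and 0.3, 0.18, -0.01 and 0.38 in the old ones, without overlap. Its median difference was 0.5, 14 genes were higher in old by sign and 8 did not overlap. Dgat2, which makes triglyceride, was the 1 gene of this list called, with a rise of 0.85 (SE 0.194, adjusted p = 0.0377). Its difference was 0.31 with the fat marker level as a covariate. The defining adipocyte hormones Adipoq and Lep and the brown fat gene Ucp1 were below the filter on low values, with means of 5.63, 5.23 and 5.5. Of 7 tested skeletal muscle genes 0 were called, and their median difference was -0.01. The source of the cardiac and fat marker RNA was not tested, nor was its part in each gene below beyond the covariate values given.

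**Figure D1:**
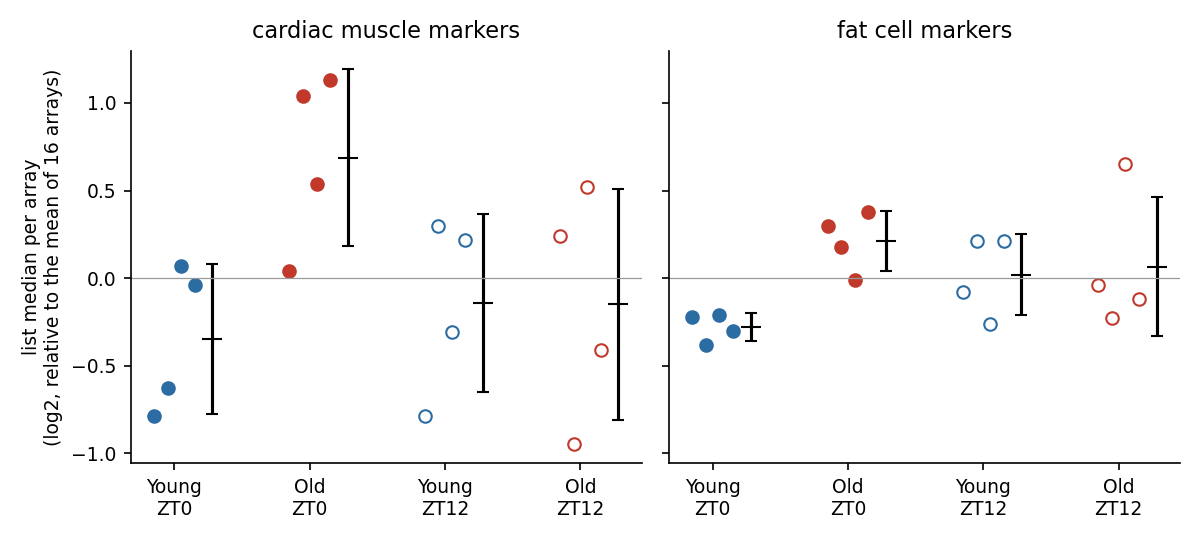
Median level of cardiac muscle markers (left) and fat cell markers (right) in each of the 16 arrays, on the log2 scale relative to the mean of all arrays; points are arrays in replicate order, filled at ZT0 and open at ZT12, and the bar beside them is the group mean with its SD (n = 4). At ZT0 the old arrays lay at 0.04 to 1.13 for cardiac and -0.01 to 0.38 for fat markers, against -0.79 to 0.07 and -0.38 to -0.21 in young arrays.

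Among called genes without overlap, immunoglobulin transcripts, the proenkephalin gene Penk, the clock repressor Nr1d1 and the cytokine receptor Il23r had the largest rises. The apelin receptor Aplnr, the phosphate-regulating peptidase Phex, the transcriptional regulator Prdm8 and the cornified envelope gene Sprr1a had the largest falls among them. Predicted genes, clones and small RNAs were left out of this ranking. Uncalled genes differed by more than Penk, by up to 2.94 in the cardiac, 2.12 in the club and goblet and 1.97 in the fat list. With Benjamini-Hochberg adjustment over 15526 genes, 326 were called (2.10%). Of these, 220 were higher in old (1.42%) and 106 lower (0.683%). The changes were small: 13 genes changed at least 2-fold, and the median size over the 326 genes was 0.43 on the log2 scale. In 314 of the 326 the 4 old and 4 young values did not overlap. At an unadjusted p under 0.05 there were 2729 genes, or 17.6%.

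The number of genes called rested strongly on single arrays and on the marker levels, as the plot of calls by setting shows. For old minus young at ZT0, leaving out Young ZT0 replicate 1, 2, 3 or 4 gave 36, 40, 162 or 39 genes in turn. Leaving out Old ZT0 replicate 1, 2, 3 or 4 gave 369, 252, 74 or 25. Without Old ZT0 replicate 1 the split was 180 higher and 189 lower. With the cardiac marker level as a covariate 4 genes were called (0.0258%), with the fat marker level 3 (0.0193%) and with both 0. All 326 genes kept their direction with either covariate. Their median difference was then 0.34 with the cardiac and 0.33 with the fat covariate, against 0.43 without, and the median SE was 0.11 and 0.111, against 0.0909. In all 8 fits that left out 1 ZT0 array, 22 of the 326 genes were called, 20 higher in old and 2 lower, while 27 were called in 0 of the 8.

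**Figure D2:**
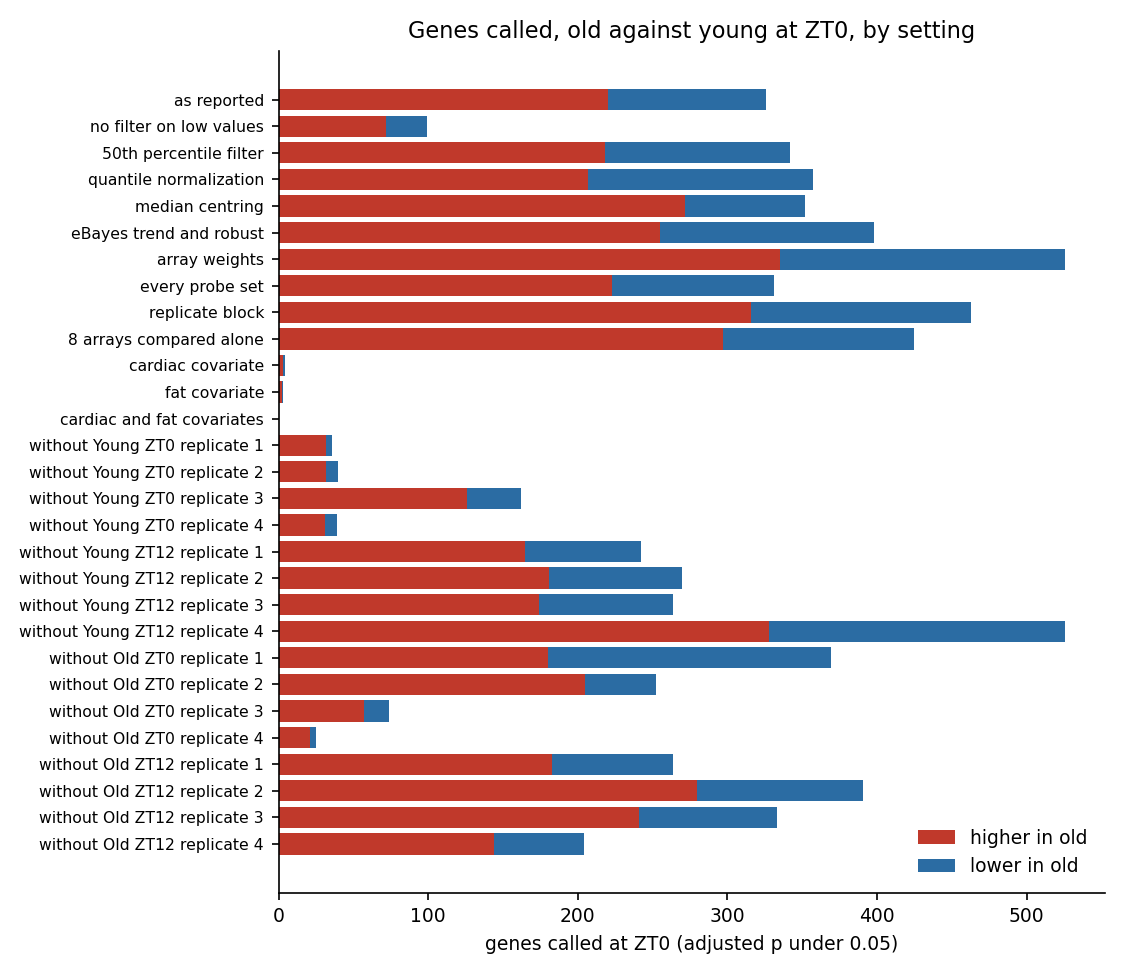
Number of genes called between old and young lungs at ZT0 (horizontal axis, adjusted p under 0.05) under each setting (vertical axis), split into genes higher and lower in old lungs. As reported the count was 326, it fell to 25 without Old ZT0 replicate 4, and it was 4, 3 and 0 with the cardiac, fat and both covariates.

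Of the genes called in each of these 8 fits, Sprr1a had the smallest adjusted p. It encodes a small proline-rich protein of the cornified envelope of squamous epithelia. Its log2 values were 6.89, 7.07, 7.23 and 7.31 in Young ZT0 replicates 1 to 4 and 5.9, 6.05, 5.71 and 5.86 in Old ZT0 replicates 1 to 4, the order used for every gene below. All old arrays lay below all young ones. Sprr1a fell by 1.24 (SE 0.119, adjusted p = 0.000298), and it stayed called with the cardiac covariate (difference -1.21, adjusted p = 0.0212) and the fat covariate (-1.24, adjusted p = 0.0191). Of the 3 tested genes of the stratified epithelium list it was the 1 called, and the other 10 on the array were below the filter.

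Cfap221, a protein of the ciliary central apparatus, was at 6.29, 6.28, 6.34 and 6.29 in young and 6.71, 6.68, 6.73 and 6.8 in old lungs. The young arrays lay within a narrow band and the old ones above it. It rose by 0.43 (SE 0.0456, adjusted p = 0.000651), and by 0.4 with the cardiac covariate (adjusted p = 0.0425). Aass, the enzyme that starts lysine breakdown, was at 6.65, 6.62, 6.57 and 6.67 in young and 7.09, 7.0, 7.02 and 7.0 in old arrays. It rose by 0.4 (SE 0.0529, adjusted p = 0.00343) and was called with the cardiac covariate (adjusted p = 0.0444) but not with the fat covariate (difference 0.39, adjusted p = 0.13). These genes, Sprr1a and Nr1d1 were the 4 called with the cardiac covariate.

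Several other genes called in all 8 fits have roles in metabolism or signalling. Penk encodes the precursor of the enkephalin opioid peptides. Its values were 6.43, 5.93, 6.38 and 6.16 in young and 7.17, 7.5, 7.68 and 7.83 in old lungs. It was 2.49-fold higher in old (log2 difference 1.32, SE 0.187, adjusted p = 0.00453), and the difference was 0.93 with the cardiac and 0.9 with the fat covariate. Azgp1, a secreted glycoprotein linked to lipid mobilisation, was at 7.15, 6.82, 7.18 and 7.0 in young and 8.13, 7.86, 7.94 and 8.34 in old. All 4 old values were above the young range, and the rise was 1.03 (SE 0.146, adjusted p = 0.00453), with 0.72 under the fat covariate. Trpv4, a calcium channel that responds to stretch and osmotic change, rose by 0.58 (SE 0.0794), from a young range of 6.25 to 6.46 to an old range of 6.8 to 7.06. Aspa, which splits N-acetylaspartate, rose by 0.49, Xylb, a xylulose kinase, by 0.5 and Htr2b, a serotonin receptor, by 0.47. Dqx1 rose by 0.41 and the pseudogene Mfsd4b3-ps by 0.52. The second gene called lower in all 8 fits was Ppp1r14c, a phosphatase inhibitor, at 7.83 to 8.03 in young and 7.45 to 7.64 in old arrays. It fell by 0.38.

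**Figure D3:**
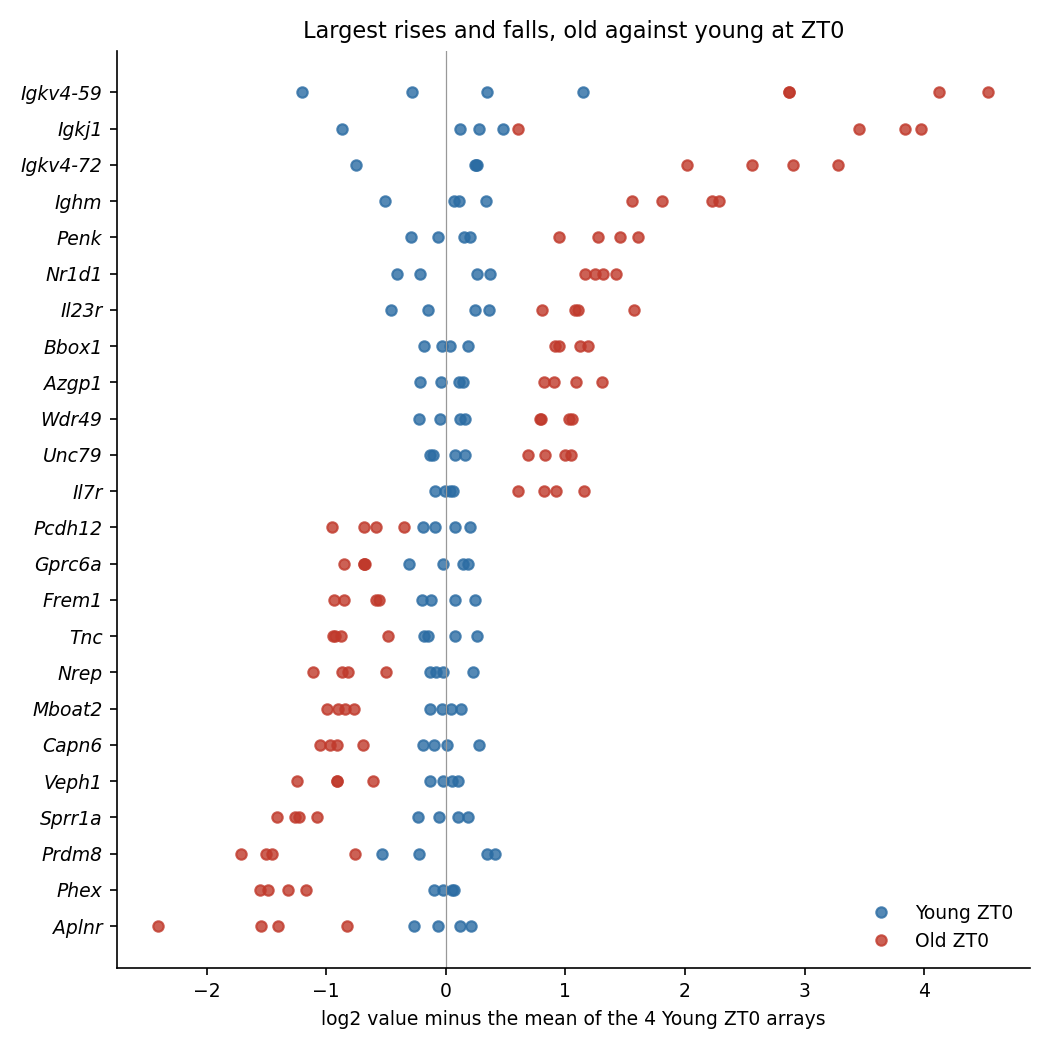
Log2 values of the 12 largest rises and 12 largest falls, taken only from called genes without overlap between groups (vertical axis) in each Young ZT0 and Old ZT0 array, minus the mean of the 4 young arrays (horizontal axis). The separation of old and young points was fixed by that choice; Igkj1 in Old ZT0 replicate 2, at 7.29 against 10.14 to 10.66 in the other old arrays, sits closest to the young group among the immunoglobulin genes.

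Among clock genes, Nr1d1 and Nr1d2, which encode the repressors REV-ERB alpha and beta, were the 2 called higher in old lungs at lights on. Nr1d1 stood at 8.35, 7.68, 8.46 and 7.87 in young and 9.25, 9.34, 9.51 and 9.4 in old lungs. Every old array lay well above the young range, and the old arrays were close to each other. Nr1d1 was 2.44-fold higher (log2 difference 1.29, SE 0.15, adjusted p = 0.00104) and was called with the cardiac covariate (1.31, adjusted p = 0.0425) and the fat covariate (1.31, adjusted p = 0.0471). Nr1d2 stood at 7.41, 7.21, 7.61 and 7.39 in young and 7.87, 7.99, 8.27 and 8.06 in old, a rise of 0.64 (SE 0.0987, adjusted p = 0.00883). Its difference with the cardiac covariate was 0.53 (adjusted p = 0.293). Both were called in all 8 fits that left out a ZT0 array.

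Of 13 tested clock genes that peak towards evening, 2 were called higher, 0 lower and 11 not called. Over all genes tested 1.42% were called higher. By sign 11 of the 13 were higher, with a median of 0.09, against a median of -0.01 over all genes tested. The other members included Bhlhe41, a repressor of the same loop, at 0.42 (SE 0.131, adjusted p = 0.105) and the clock-driven protease gene Usp2 at 0.4 (SE 0.12, adjusted p = 0.0963). Dbp and Tef, output factors of the clock, differed by 0.08 (SE 0.138) and 0.1 (SE 0.0866), Per3 by 0.11 (SE 0.104) and Per1 by -0.07 (SE 0.25). Per1 was spread widely in young lungs, from 8.57 to 10.13. A second probe set of Tef gave -0.01.

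Of the 6 tested morning genes 0 were called and 5 were lower in old by sign. In 3 the groups did not overlap, all lower in old, against 5.18% of all genes. Npas2, a partner of BMAL1, was at 8.69, 8.86, 8.83 and 8.84 in young and 8.4, 8.37, 8.46 and 8.58 in old lungs. The groups were apart, but the difference of -0.35 (SE 0.102) missed the threshold (adjusted p = 0.0829). Cry1, a repressor, differed by -0.43 (SE 0.132, adjusted p = 0.0998), with 4 old values between 7.74 and 7.82 and 4 young values between 7.97 and 8.38. Arntl, which encodes BMAL1, had its lowest young value at 9.61 and its highest old value at 9.6, and differed by -0.2 (SE 0.179, adjusted p = 0.596).

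At lights off both repressors stood higher in both ages, and their age difference was not called. Nr1d1 was at 10.39, 10.6, 10.3 and 10.03 in Young ZT12 and 10.16, 10.39, 10.21 and 10.35 in Old ZT12, a difference of -0.05 (SE 0.15, adjusted p = 0.899). Nr1d2 differed by -0.14 (SE 0.0987, adjusted p = 0.546). The difference between the ZT0 and ZT12 age effects was 1.34 (SE 0.211) for Nr1d1, with an unadjusted p of 1.11e-05 and an adjusted p of 0.172, which was the smallest of the 15526 genes. For Nr1d2 it was 0.78 (SE 0.14, adjusted p = 0.245). The interaction was therefore not called for either gene.

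Among called genes, immunoglobulin genes showed the largest rises in old lungs. They encode the antibody chains of B and plasma cells, and their segments share near-identical sequence, so the level of any 1 segment is uncertain. Igkj1, a kappa joining segment, was at 6.8, 5.82, 6.96 and 7.16 in young and 10.14, 7.29, 10.66 and 10.52 in old lungs. Old replicate 2 lay just above the highest young array and the other 3 old arrays far above it. Igkj1 rose by 2.97 (SE 0.595, adjusted p = 0.0241), and was called in 3 of the 8 fits that left out a ZT0 array. Ighm, the heavy chain of IgM, was at 10.26, 9.68, 10.3 and 10.53 in young and 12.0, 11.75, 12.42 and 12.48 in old lungs. It rose by 1.97 (SE 0.477, adjusted p = 0.0457) and was called in 0 of the 8 fits. Its 6 other probe sets gave differences of 0.37 to 2.4, all higher in old. Igkv4-72 rose by 2.69 (SE 0.652) and Igkv4-59 by 3.6 (SE 0.891). Igkv4-59 was below the filter value of 5.646 in all young arrays, at 2.85 to 5.2, so its fold is set by dim signals.

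Of 14 tested immunoglobulin genes and segments 4 were called higher and 0 lower, where 1.42% of all genes were called higher. All 14 were higher by sign, with a median difference of 1.97. In 9 the groups did not overlap, all higher in old, against 5.64% of all genes. The list level was -1.13, -1.6, -0.97 and -0.84 in young and 0.77, -0.27, 1.6 and 1.37 in old arrays. Without Young ZT0 replicates 1, 2 or 4, or without Old ZT0 replicates 3 or 4, 0 were called, and 1, 2 and 3 were called without Young ZT0 replicate 3, Old ZT0 replicate 1 and Old ZT0 replicate 2. The median difference was 1.49 with the cardiac and 1.4 with the fat covariate, with 0 called. Jchain, which joins secreted IgM and IgA, stood at 6.14, 6.11, 5.74 and 6.83 in young and 8.63, 8.04, 9.61 and 9.59 in old lungs. The groups were well apart, but the difference of 2.76 (SE 0.726) missed the threshold (adjusted p = 0.0611). Among 17 tested B and plasma cell genes, which include Ighm and Jchain, Ighm was the 1 called, and the list median was 0.22.

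Of 27 tested T and natural killer cell genes 4 were called higher, Il23r, Il7r, Cxcr6 and Cd3g, 0 lower and 23 not called. By sign 21 were higher, and the median was 0.18. Without overlap 5 were higher in old and 1 lower, against 5.64% and 5.18% of all genes. Of all genes tested 1.42% were called higher. Il23r, the receptor of interleukin 23, was at 5.34, 5.46, 4.64 and 4.95 in young and 6.18, 6.67, 5.9 and 6.2 in old lungs. The young arrays were all below the filter value of 5.646 and the old ones all above, so Il23r was tested through the groups where it was brighter. It rose by 1.14 (SE 0.174, adjusted p = 0.00851), a size set in part by dim signals. Il7r, the receptor of interleukin 7 that sustains lymphocytes, was at 7.47, 7.35, 7.5 and 7.43 in young and 8.36, 8.59, 8.04 and 8.26 in old lungs. The rise of 0.87 (SE 0.146, adjusted p = 0.0139) was well beyond the young spread. Cxcr6, a chemokine receptor of tissue-resident lymphocytes, rose by 0.72 (SE 0.106, adjusted p = 0.00647), from 5.68, 5.96, 5.99 and 5.76 to 6.5, 6.77, 6.51 and 6.49. All 3 were called in all 8 fits that left out a ZT0 array. Cd3g, a chain of the T cell receptor complex, rose by 0.6 (SE 0.117) and was called in 4 of those fits. With the cardiac covariate the differences were 1.16, 0.82, 0.67 and 0.51 for Il23r, Il7r, Cxcr6 and Cd3g, with 0 called. Thy1, a surface protein of T cells and lymphatic endothelium, rose by 0.55 (SE 0.12, adjusted p = 0.0328) and was the 1 gene called of 7 in the lymphatic list.

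Of 19 tested complement genes 3 were called higher, Cfb, C4b and C1qa, 1 lower, Hc, and 15 not called, and the median was 0.18. Over all genes tested 1.42% were called higher and 0.683% lower. Cfb, a protease of the alternative pathway, was at 7.7, 7.88, 7.95 and 7.8 in young and 8.31, 8.36, 8.17 and 8.43 in old lungs. All old values were higher, and the rise of 0.48 (SE 0.0734, adjusted p = 0.00846) was called in all 8 fits. C4b, a component of the classical pathway, was at 9.24, 9.7, 9.44 and 9.28 in young and 10.03, 10.08, 9.81 and 10.1 in old lungs, a rise of 0.59 (SE 0.109, adjusted p = 0.0205). C1qa, a chain of the C1q initiator made by macrophages, rose by 0.32 (SE 0.074) and was called in 1 of the 8 fits. Hc, complement C5, fell by 0.38 (SE 0.0703), and was also on the alveolar type 2 list. Hc was called in 4 of the 8 fits. Complement genes called higher numbered 1 without Young ZT0 replicates 1 or 4 or Old ZT0 replicate 4, 2 without Young ZT0 replicates 2 or 3 or Old ZT0 replicates 2 or 3, and 3 without Old ZT0 replicate 1. Among 18 tested monocyte and interstitial macrophage genes C1qa and the scavenger receptor Cd163 (0.48, SE 0.106, adjusted p = 0.0364) were called higher. By sign 15 were higher, and the median was 0.2. Of these genes 0 were called in any fit without 1 ZT0 array except that without Old ZT0 replicate 1, where 2 were. The alveolar macrophage list had 0 of 14 called and a median of -0.04. Neutrophil genes had 0 of 13 called, and their list level ran from -1.24 to 1.35 among the old arrays alone.

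Ciliated airway genes leaned higher in old lungs. The axoneme, the motor core of motile cilia, is built under FOXJ1 and RFX factors, and RFX proteins bind the X-box. Of 22 tested ciliated markers 5 were called higher, Dynlrb2, Hydin, Ccdc113, Tekt1 and Drc1, and 0 lower. Over all genes tested 1.42% were called higher. The median of the ciliated markers was 0.47. By sign 21 were higher. In 15 the groups did not overlap, all higher in old, against 5.64% of all genes. Of the 9 genes called higher whose windows held an X-box-like word, 6 are shown so that the shared sequence can be seen; the other 3, 1700029J07Rik, Iqca and Tmem232, are not printed. Words were searched in the 250 bases before the RefSeq start site (GRCm38.p6), on both strands, as GTTNCCNGNAAC, GTTNCCNNGNAAC or GTTNCCNNNGNAAC, so a printed word may be the reverse complement of these spellings. Capitals mark the word in 80 bases around it for Dynlrb2 (chr8:116504934-116505013, plus strand), Hydin (chr8:110266897-110266976, plus strand), Cfap45 (chr1:172521050-172521129, plus strand), Dnaic2 (chr11:114727339-114727418, plus strand), Dydc1 (chr14:41072822-41072901, plus strand) and Fbxl13 (chr5:21645606-21645685, minus strand).
Dynlrb2: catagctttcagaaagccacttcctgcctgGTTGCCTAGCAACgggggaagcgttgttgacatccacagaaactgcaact
Hydin: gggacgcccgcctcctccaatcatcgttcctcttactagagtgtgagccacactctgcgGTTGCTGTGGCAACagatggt
Cfap45: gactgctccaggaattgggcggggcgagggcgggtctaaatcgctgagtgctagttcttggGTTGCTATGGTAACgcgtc
Dnaic2: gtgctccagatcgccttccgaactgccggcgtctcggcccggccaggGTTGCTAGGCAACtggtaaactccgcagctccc
Dydc1: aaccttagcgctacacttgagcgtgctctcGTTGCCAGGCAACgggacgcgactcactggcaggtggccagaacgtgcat
Fbxl13: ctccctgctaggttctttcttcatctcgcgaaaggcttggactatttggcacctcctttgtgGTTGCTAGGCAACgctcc

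Such a word lay in 468 of 32851 promoter windows (1.42%) and in 226 of 15152 windows of the tested genes (1.49%). It lay in 9 of 210 windows of genes called higher (4.29%), in 0 of 94 windows of genes called lower and in 3 of 21 windows of ciliated markers (14.3%). These are counts of letters, not of sites in use.

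The 6 genes printed above were taken from those called higher. Dynlrb2, a dynein light chain, was at 8.83, 8.65, 9.04 and 8.96 in young and 9.57, 9.18, 9.48 and 9.42 in old arrays. Old replicate 2 was the lowest old array, and no values overlapped. Dynlrb2 rose by 0.55 (SE 0.11, adjusted p = 0.0252). Hydin, a central pair protein, was at 7.86, 7.69, 7.95 and 7.78 in young and 8.57, 8.24, 8.51 and 8.5 in old, a rise of 0.63 (SE 0.136), while its second and dimmer probe set gave -0.11. Dydc1 rose by 0.5 (SE 0.0794, adjusted p = 0.0114) and was called in all 8 fits that left out a ZT0 array. Fbxl13, a dynein regulatory complex subunit, rose by 0.62 (SE 0.108), Dnaic2, a dynein intermediate chain, by 0.42 (SE 0.103) and Cfap45, a protein inside the microtubule doublets, by 0.35 (SE 0.0843). The last 2 were each called in 1 of the 8 fits. The other called markers were Ccdc113 (0.47, SE 0.105), a cilia assembly protein, Tekt1 (0.45, SE 0.109), a tektin filament protein, and Drc1 (0.4, SE 0.0988), a dynein regulatory complex subunit.

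The ciliated list level was -0.27, -0.45, -0.13 and -0.3 in young and 0.27, -0.04, 0.19 and 0.24 in old arrays. Ciliated markers called numbered 0 without Young ZT0 replicates 1, 2 or 4 or Old ZT0 replicates 3 or 4, 1 without Old ZT0 replicate 1, 3 without Young ZT0 replicate 3 and 6 without Old ZT0 replicate 2. With the cardiac covariate the median difference was 0.28 and with the fat covariate 0.22, with 0 called. Club and goblet cell genes, the secretory neighbours, had 0 of 15 called and a median of 0.15. By sign 13 of these 15 were also higher in old lungs, with differences of up to 2.12. Their median was -0.07 with the cardiac and -0.05 with the fat covariate, and -0.03 at ZT12.

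Capillary endothelium genes leaned lower in old lungs, led by Aplnr. Of 21 tested capillary endothelium genes 20 were lower in old by sign, with a median of -0.18. Called lower were 2, Aplnr and Fibin, and 0 were called higher, where 0.683% of all genes were called lower. Aplnr, the apelin receptor, had the largest fall of any gene named, 2.92-fold. It stood at 9.17, 8.79, 9.26 and 8.99 in young and 8.23, 6.65, 7.65 and 7.51 in old lungs. The old arrays were spread over a wide range, all of it below the young arrays. Aplnr fell by 1.55 (SE 0.284, adjusted p = 0.0197) and was called in 5 of the 8 fits. Its ligand Apln was at 8.25 to 8.54 in young and at 7.97, 6.94, 7.56 and 7.6 in old lungs, a difference of -0.83 (SE 0.213, adjusted p = 0.0565). Fibin, a secreted protein, fell by 0.55 (SE 0.115). Pcdh12, an endothelial protocadherin, fell by 0.64 (SE 0.133, adjusted p = 0.0282). Capillary genes called numbered 0 without Young ZT0 replicates 1 or 4 or Old ZT0 replicate 4, 1 without Young ZT0 replicate 2 or Old ZT0 replicates 2 or 3, and 7 without Old ZT0 replicate 1. The capillary list median was -0.12 with the cardiac and -0.23 with the fat covariate, with 0 called. Aplnr differed by -1.26 with the cardiac and -1.51 with the fat covariate. Arterial and venous genes had 0 of 14 called and a median of 0.01.

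In the matrix, 5 of 35 tested elastic fibre and glycoprotein genes were called lower, Tnc, Postn, Eln, Ltbp2 and Sparc, and 1 higher, Dcn. Over all genes tested 0.683% were called lower and 1.42% higher. By sign 26 of the 35 were lower, and their median was -0.09. Tnc, tenascin-C, a glycoprotein of growing and injured tissue, was at 7.3, 7.74, 7.56 and 7.33 in young and 6.56, 6.54, 6.61 and 7.0 in old lungs. Old replicate 4 was the nearest to the young range. It fell by 0.81 (SE 0.16, adjusted p = 0.0241). Eln, elastin, was at 10.08, 10.23, 10.09 and 10.07 in young and 9.61, 9.5, 9.36 and 9.8 in old lungs, and fell by 0.55 (SE 0.13, adjusted p = 0.0417), a call lost in each of the 8 fits that left out a ZT0 array. Postn, periostin, fell by 0.52 (SE 0.103), Ltbp2, a binding protein of elastic microfibrils, by 0.46 (SE 0.105) and Sparc, a collagen-binding glycoprotein, by 0.27 (SE 0.0586). Dcn, the proteoglycan decorin, rose by 0.33 (SE 0.0775, adjusted p = 0.0417). The list's called falls numbered 0 without Young ZT0 replicates 1, 2 or 4 or Old ZT0 replicate 3, and 1 without Young ZT0 replicate 3 or Old ZT0 replicate 4. They numbered 2 without Old ZT0 replicate 2 and 4 without Old ZT0 replicate 1. With the cardiac covariate the differences of Tnc, Eln and Postn were -0.72, -0.35 and -0.54. Those of Ltbp2, Sparc and Dcn were then -0.28, -0.17 and 0.17. The median of this list was -0.02 with the cardiac and -0.09 with the fat covariate, with 0 called.

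Collagen genes were lower by sign in 23 of 25, but 0 were called. In 13 the groups did not overlap, all lower in old, against 5.18% of all genes. Col3a1, a fibril collagen, was at 9.78, 9.92, 9.99 and 9.76 in young and 9.14, 9.11, 9.31 and 9.18 in old lungs, a difference of -0.68 (SE 0.197, adjusted p = 0.0854). Col1a1 differed by -0.48 (SE 0.186, adjusted p = 0.192) and Col5a2 by -0.49 (SE 0.121, adjusted p = 0.051). These 3 were picked after their values were seen. Their groups did not overlap, and the SE of the fit also holds the spread at ZT12. That spread includes the array labelled Young ZT12 replicate 4, where the collagen list level was -0.17. It was 0.02 to 0.22 in the other Young ZT12 arrays. The list median was -0.19, -0.13 with either covariate, and -0.13 at ZT12. Of 23 matrix proteases and inhibitors Mmp2, a gelatinase, fell by 0.52 (SE 0.118, adjusted p = 0.0377) and Timp4, an inhibitor also made in heart and fat, rose by 0.51 (SE 0.115), with 0.37 under either covariate.

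Other large falls were of genes with separate roles. Phex, at 6.61, 6.69, 6.78 and 6.76 in young and 5.22, 5.39, 5.54 and 5.16 in old lungs, fell by 1.38 (SE 0.264, adjusted p = 0.0227). All old arrays were below the filter value, so the size is set by dim signals. Prdm8 was at 7.86, 7.55, 8.49 and 8.43 in young and 7.32, 6.37, 6.63 and 6.58 in old, and fell by 1.36 (SE 0.272, adjusted p = 0.0241). The array labelled Young ZT12 replicate 4 stood with the old arrays for both, at 5.32 for Phex and 6.65 for Prdm8, against at least 6.78 and 7.68 in the other Young ZT12 arrays. Capn6, a calpain without protease activity, fell by 0.91, Veph1, below the filter value in all old arrays, by 0.92, Mboat2, a phospholipid acyltransferase, by 0.88, Nrep by 0.82, Frem1, a basement membrane protein, by 0.73 and Gprc6a, an amino acid-sensing receptor, by 0.72. Among the rises, Bbox1, the last enzyme of carnitine synthesis, rose by 1.04 (SE 0.204, adjusted p = 0.0241), with 0.61 under the fat covariate. Wdr49, below the filter value in all young arrays, rose by 0.92 and Unc79, a part of a sodium leak channel complex, by 0.89. Muc16, a mesothelial mucin, rose by 0.7 (SE 0.164).

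Alveolar epithelial genes had small differences. Of 22 tested type 2 genes 18 were lower by sign, with a list median of -0.14. Called lower were 3, Hc, Muc1 and Dram1, where 0.683% of all genes were called lower. Without overlap 10 were lower in old and 2 higher, against 5.18% and 5.64% of all genes. Muc1, a membrane mucin, was at 11.33, 11.4, 11.42 and 11.35 in young and 11.18, 10.94, 11.11 and 11.01 in old lungs, and fell by 0.31 (SE 0.0708, adjusted p = 0.0364). Dram1, a lysosomal membrane protein, fell by 0.29 (SE 0.0652). The type 2 list median was -0.06 with the cardiac and -0.07 with the fat covariate, with 0 called. With the cardiac covariate Hc differed by -0.26, Muc1 by -0.22 and Dram1 by -0.22. Falls called in this list numbered 0 without Young ZT0 replicates 1, 2 or 4 or Old ZT0 replicate 4, 1 without Young ZT0 replicate 3 or Old ZT0 replicates 2 or 3 and 3 without Old ZT0 replicate 1. The surfactant gene Sftpc differed by -0.07 (SE 0.0389, adjusted p = 0.399). Type 1 genes had 0 of 16 called and a median of -0.08.

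Several pathway lists leaned one way by sign with few or no calls. All 34 tested cell cycle genes were lower in old by sign, with a median of -0.12, and 0 were called. In 6 the groups did not overlap, against 5.18% of all genes lower in old without overlap. The proliferation marker Mki67 stood at 7.93 to 8.0 in young and 7.49 to 7.81 in old lungs (-0.3, SE 0.105, adjusted p = 0.142). Of 40 respiratory chain genes 37 were higher by sign with a median of 0.11, and the 1 call was Cox5a, a cytochrome oxidase subunit, which rose by 0.28 (SE 0.0647, adjusted p = 0.0396). Its difference was 0.16 with the cardiac covariate, and the list median was then 0.03. Of 30 detoxification genes 24 were higher by sign, with Alas1, the first enzyme of heme synthesis, called at 0.24 (SE 0.0576). Asns, an asparagine synthetase, rose by 0.25 (SE 0.0474) as the 1 call of 21 unfolded protein response genes. Cxcl14 fell by 0.53 (SE 0.108) as the 1 call of 27 chemokines. A count of 1 in lists of 21 to 40 genes is near the 2.10% called over all genes, and is no result about these lists.

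Lists with 0 calls included interferon response (30 genes, median -0.01), class I (15, median 0.12) and class II antigen presentation (9, median 0.23), heat shock (21, median 0.07), senescence and p53 targets (17, median 0.02), cholesterol synthesis (19, median 0.01), glucocorticoid targets (16, median -0.01) and collagen processing (19, median -0.08). Neuroendocrine airway (4 genes), dendritic cell (13), mast cell, basophil and eosinophil (3), red blood cell (3), platelet (7), Schwann cell (6) and T cell receptor (3) lists also had 0 calls. In the remaining lists the calls were Dcn of 23 fibroblast genes, Postn and Gucy1a1 of 17 smooth muscle and pericyte genes, Muc16 of 8 mesothelial genes, and Penk and Aplnr of 30 neuropeptide and peptide receptor genes. Gucy1a1, a subunit of the nitric oxide receptor, fell by 0.31 (SE 0.0719, adjusted p = 0.0396). A count of 0 at this number of arrays does not show that the genes were equal.

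**Figure D4:**
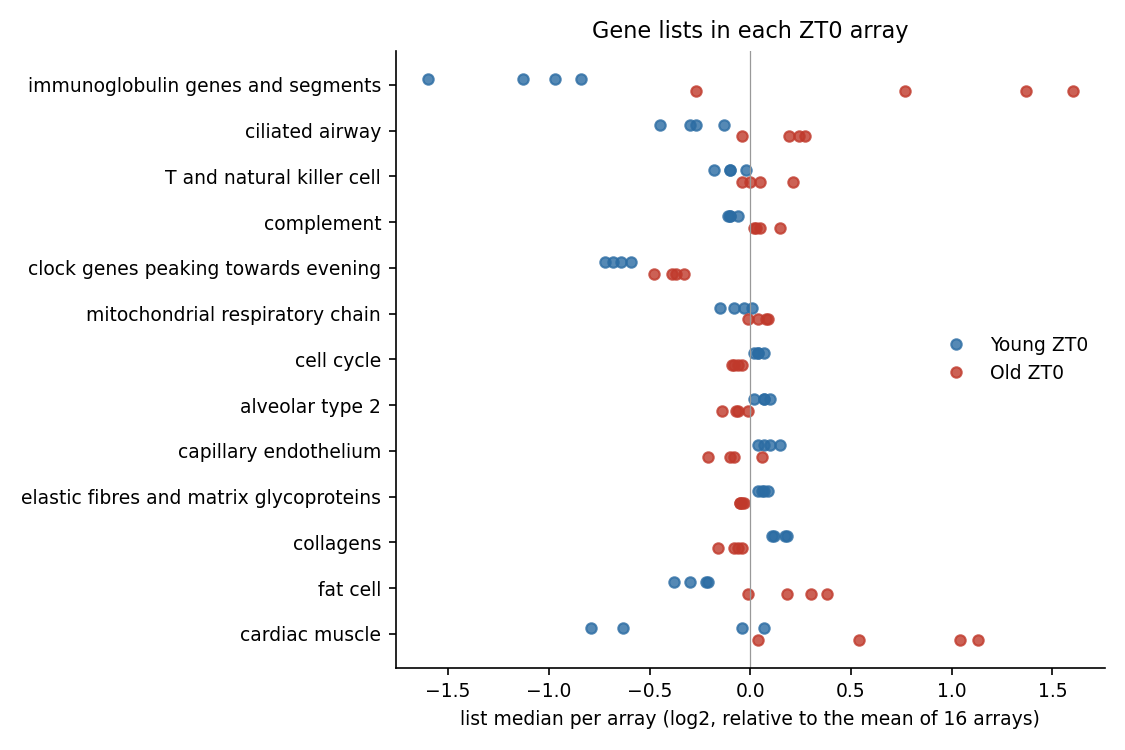
Median level of 13 gene lists (vertical axis) in each Young ZT0 and Old ZT0 array, on the log2 scale relative to the mean of 16 arrays (horizontal axis). Immunoglobulin genes lie at -1.6 to -0.84 in young and -0.27 to 1.6 in old arrays, collagens at 0.11 to 0.18 in young and -0.16 to -0.04 in old, and cardiac and fat markers are the lowest 2 rows.

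The age difference of the same genes at lights off, measured on other arrays, shared its direction for most. Of the 326 genes called at ZT0, 309 had the same sign at ZT12 (94.8%), against 66.4% of all genes, and 17 had the opposite sign. At ZT12 itself 0 genes were called with limma, with 2260 genes (14.6%) at an unadjusted p under 0.05 and a smallest adjusted p of 0.121. The 2 comparisons share no arrays, but they share the estimate of the spread. The median difference of the 326 genes was 0.43 at ZT0 and, in the ZT0 direction, 0.22 at ZT12. A smaller median at ZT12 is favoured by the choice of these genes at ZT0. Of them, 192 had the same sign with an unadjusted p under 0.05 at ZT12. Without the array labelled Young ZT12 replicate 4, 299 genes (1.93%) were called at ZT12, 314 of the 326 had the same sign, 85 of those were called at ZT12 and the median was 0.27. In that fit 147 genes were called at both times.

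The difference between the ZT0 and ZT12 age effects was called for 0 genes, with 767 (4.94%) at an unadjusted p under 0.05, 99 of them among the 326. The 326 were chosen by the ZT0 difference, which is part of the interaction, so a raised share among them is built in. Sprr1a differed by -0.31 at ZT12 (adjusted p = 0.254), and its interaction of -0.94 (SE 0.168) had an unadjusted p of 4.73e-05 and an adjusted p of 0.245. In the young lungs Sprr1a was at 6.01 to 6.32 at ZT12, below its ZT0 values. Penk was at 6.52, 6.8, 6.39 and 7.16 in Young ZT12 and 7.1, 6.95, 7.65 and 7.02 in Old ZT12, a difference of 0.46 (SE 0.187, adjusted p = 0.27). Il7r differed by 0.67 (SE 0.146, adjusted p = 0.121) and Bbox1 by 0.93 (SE 0.204, adjusted p = 0.121). Aplnr differed by -0.5 at ZT12. Of the called immunoglobulin genes, Igkj1 differed by 1.42 at ZT12, Igkv4-59 by 1.28, Ighm by 0.55 and Igkv4-72 by 0.52. The immunoglobulin list median was 0.68 at ZT12, against 1.97 at ZT0. The list level was 1.56 in the array labelled Young ZT12 replicate 4, against -1.28 to -0.33 in the other Young ZT12 arrays. Ighm was at 13.06 in that array, above every old array. No gene was therefore shown to differ with age at one time of day more than at the other.

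**Figure D5:**
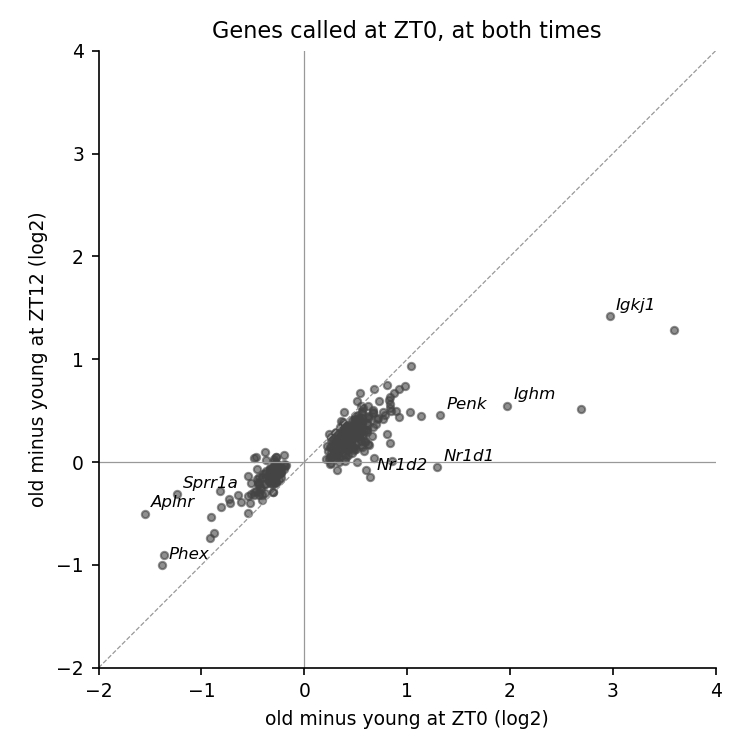
Old minus young log2 differences of the 326 genes called at ZT0, at ZT0 (horizontal axis) and at ZT12 (vertical axis), each point a gene, with the dashed line where both are equal. Of the 326, 309 have the same sign at both times; Nr1d1 (1.29 at ZT0, -0.05 at ZT12) and Nr1d2 (0.64, -0.14) lie below the ZT12 zero line.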

How the data were processed

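Labelled DNA from RNA of 16 whole-lung samples (4 groups of 4) was run on Affymetrix arrays (per the labels' protocols). The authors deposited normalized log2 values, with the scale read here from the values themselves. How they were normalized is not given in the sources used here. Of 41345 probe sets, 23521 carried 1 symbol in the platform annotation, 1814 several and 16010 none; 23328 matched RefSeq by Entrez ID and 0 symbols changed. For 1082 genes with several probe sets the brightest was used, and genes whose mean lay below the 30th percentile (5.646) were dropped. Differences were fitted with limma 3.58.1 (R 4.3.3) over all 16 arrays (12 residual and 3.55 prior degrees of freedom), Benjamini-Hochberg adjusted and called at an adjusted p under 0.05. The fit was tested on simulated data. No 2 arrays held identical values. Gene symbols were matched exactly.

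The members, 47 gene lists and named genes were chosen with earlier results of these data known. Named genes (77, of which 60 called) were the 12 largest rises and 12 largest falls without overlap, the 12 smallest adjusted p among genes called in all 8 leave-one-out fits, those called with the cardiac covariate, all tested clock genes and up to 4 called members per list, leaving out predicted genes, clones and small RNAs. Other names were chosen after their values were seen: they are members of lists and of the promoter set, Ppp1r14c and Htr2b, collagens and lung markers. Alternatives were other filters, normalizations, variance models, array weights, every probe set, a replicate block, the 8 arrays alone, marker covariates and each array left out. Promoters were RefSeq windows. Figures used matplotlib 3.10.9 in Python 3.11.15.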

Additional observations from a re-analysis of the deposited data

Results flagged for a closer look

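In 248 groups of 4 arrays (named genes and list medians) the highest or lowest array was set against the rest of its group, and 15 stood apart. Chance flags about 1 in 20 groups.

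Among genes, Igkj1 in Old ZT0 replicate 2 was at 7.29, against 10.14 to 10.66 in the other old arrays. Igkv4-72 in Young ZT0 replicate 2 was at 6.51, against 7.5 to 7.52. Cxcr6 in Old ZT0 replicate 2 was at 6.77 (others 6.49 to 6.51), Dram1 there was at 11.01 (others 11.22 to 11.25) and Sparc there was at 11.3 (others at 11.35). Tnc in Old ZT0 replicate 4 was at 7.0, against 6.54 to 6.61, and Aspa in the same array was at 7.24, against 7.36 to 7.38. Thy1 in Old ZT0 replicate 3 was at 7.24 (others 7.53 to 7.57), Gprc6a in Old ZT0 replicate 1 at 6.98 (others 7.15 to 7.16) and Hc in Young ZT0 replicate 2 at 12.22 (others 12.07 to 12.1).

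Among list medians, mast cell, basophil and eosinophil genes in Old ZT0 replicate 2 were at 1.03, against 0.08 to 0.16 in the other old arrays, from 3 tested genes. Platelet genes in Young ZT0 replicate 2 were at -1.21, against -0.5 to -0.38. Heat shock genes in Young ZT0 replicate 4 were at 0.57, against 0.18 to 0.23. Lymphatic endothelium genes in Young ZT0 replicate 3 were at -0.32, against -0.18 to -0.16. Detoxification genes in Old ZT0 replicate 2 were at -0.07, against 0.02 to 0.03.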

How the results depend on the processing

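For old minus young at ZT0, where 326 genes were called, the count was 99 with no filter on low values, 526 with array weights, 4, 3 and 0 with the cardiac, fat and both covariates, and 25 to 526 with 1 of the 16 arrays left out; the remaining settings stayed within 1.5 times. The split of higher against lower calls was 272 to 80 with median centring and 207 to 150 with quantile normalization, against 220 to 106. For old minus young at ZT12 the count of 0 became 1 with no filter, 90 with array weights and 0 to 299 with 1 array left out. For the interaction of age and time it ranged from 0 to 2 with 1 array left out. With the replicate number as a block 463 genes were called at ZT0; the deviations of same-numbered young and old arrays correlated at 0.301, 0.223, -0.173 and 0.115, so the numbers were not taken as pairs, and 2 of 4 young arrays correlated best with their own number. All 60 called named genes kept their direction in every setting that gave a value (45 had one with the 50th percentile filter). The 28 reversals were all of uncalled clock genes. With the cardiac covariate Arntl was at 0.0398, Clock at 0.0347, Nampt at -0.00393 and Per1 at 0.0228. With the fat covariate Clock was at 0.0198, Cry2 at -0.0555, Dbp at -0.0169 and Hlf at -0.027. With both, Arntl was at 0.00317, Clock at 0.0587, Cry2 at -0.0108, Dbp at -0.0128, Nampt at -0.00237 and Per1 at 0.0308. With 1 array left out the ranges were -0.0332 to 0.152 for Bhlhe40, -0.0841 to 0.0259 for Ciart, -0.0233 to 0.142 for Cry2, -0.0198 to 0.14 for Dbp, -0.0016 to 0.219 for Hlf, -0.0145 to 0.0866 for Nampt, -0.0498 to 0.13 for Nfil3 and -0.417 to 0.104 for Per1. The cause of these shifts was not tested. No detection calls were among the deposited values, so how far a probe set stood above background is unknown; 11 called genes were under the filter value in 1 group.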

Other observations

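Some groups of called genes were seen only after the values and have no test of their own. Axonemal genes were chosen by symbol (the Cfap, Dnah, Dnaaf, Drc, Rsph and Tekt families and relatives) and share genes with the ciliated list. Of them 65 were tested, 19 were called higher and 0 lower, where 1.42% of all genes were called higher. By sign 58 were higher, and the median was 0.35. It was 0.24 with the cardiac and 0.19 with the fat covariate. At ZT12 the same 58 to 7 split by sign was found, though not necessarily over the same genes, with a median of 0.26. Dnah7a, an inner arm dynein heavy chain, rose by 0.77 (SE 0.178), and Zmynd10, needed to assemble dynein arms, by 0.52 (SE 0.105), from 6.97, 6.71, 7.04 and 6.73 in young to 7.55, 7.17, 7.31 and 7.48 in old lungs.

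Nitric oxide and cyclic GMP signalling relaxes vessels and is countered by PDE5. Of 12 tested genes of this pathway, picked after the values were seen, 4 were called lower, 0 higher and 8 not called. Of all genes tested 0.683% were called lower. By sign 9 of the 12 were lower, and the median was -0.15. It was -0.05 with the cardiac and -0.07 with the fat covariate. Pde5a, the cyclic GMP phosphodiesterase, was at 11.08, 10.86, 11.06 and 10.96 in young and 10.74, 10.53, 10.43 and 10.44 in old lungs, a fall of 0.45 (SE 0.0816, adjusted p = 0.0192 by limma). The soluble guanylate cyclase subunits Gucy1a1, Gucy1a2 and Gucy1b1 fell by 0.31, 0.29 and 0.34, each called in 1 of the 8 fits that left out a ZT0 array, and Pde5a in 4. With the cardiac covariate these 4 differed by -0.38 for Pde5a, -0.3 for Gucy1a1, -0.3 for Gucy1a2 and -0.34 for Gucy1b1, with 0 called. At ZT12 the median of the 12 genes was -0.01.

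Of 12 tested interleukin 7 and 23 receptor and type 3 lymphoid genes, also picked after the values were seen, 4 were called higher (Il23r, Il7r, Cxcr6 and Thy1), 0 lower and 8 not called. Of all genes tested 1.42% were called higher. The list median was 0.1. By sign 4 were lower, Il17f (-0.22), Ahr (-0.18), Il1r1 (-0.11) and Rora (-0.07). Icos (0.29), Maf (0.16), Il18r1 (0.03) and Cd163l1 (0.01) were also not called. Il17a, Il22 and Ccr6 were below the filter.

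Outside the cell cycle list, and also picked after the values were seen, Plk4, which starts centriole duplication, fell by 0.3 (SE 0.0525, adjusted p = 0.0147), and Ndc80, a kinetochore protein, by 0.47 (SE 0.0972). Ccnd2 and Cdk6, which drive entry into the cycle, fell by 0.3 (SE 0.073) and 0.4 (SE 0.092). Plk4 was called in 6 of the 8 fits that left out a ZT0 array, Ndc80 in 2 and the other genes in 1 each. Nexn and Popdc2, both abundant in heart, rose by 0.53 (SE 0.106) and 0.59 (SE 0.129), and their differences were 0.29 and 0.31 with the cardiac covariate.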
